A study of Mus musculus with 52 samples.

Results

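Open chromatin was compared between vascular endothelial cells (ECs) of the cerebellum and of the anterior pituitary (AP) in wild type (WT) mice, using the ATAC-seq peak lists of 4 libraries, 2 per tissue, out of 52 samples in the series. ATAC-seq inserts sequencing adapters into DNA that nucleosomes leave free, so that a peak marks an open stretch of chromatin. Every library came from adult male Tie2-GFP mice, in which the regulatory sequences of the EC receptor gene Tie2 (Tek) drive GFP, and from about 50000 viable GFP-positive cells collected by flow cytometry after papain digestion. Pituitaries of many mice were pooled for each replicate, and the replicates were separate pools. Peaks on the mitochondrial genome were removed, as were those not above 2 in fold enrichment or in −log10 q, and the 20000 with the highest −log10 q were used per library. Overlapping peaks of the 4 lists were joined into 28925 regions. Of these, 2983 (10.3% of all joint regions) were present in both cerebellum lists and neither AP list and are called cerebellum-only, and 3168 (11.0%) were present in both AP lists and neither cerebellum list and are called AP-only. This presence chose the regions and is a description, with no test. Other GFP-positive libraries, which the choice did not use, are given for comparison: WT posterior pituitary (PP), and all 3 tissues of mice with stabilized beta-catenin, which carried Ctnnb1 flex3/+, Pdgfb-CreER and Tie2-GFP and received 4-hydroxytamoxifen (4HT), so that ECs in which the Pdgfb-driven recombinase had acted made a beta-catenin that resists degradation. The WT mice carried Tie2-GFP without those alleles.

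ECs of the cerebellum form the blood-brain barrier (BBB), with tight junctions, few vesicles and many nutrient transporters, and Wnt ligands from the surrounding tissue keep beta-catenin in their nuclei, where it acts through DNA-bound TCF and LEF proteins. ECs of the AP are fenestrated: their pores, closed by a diaphragm built from PLVAP, let hormones and their releasing factors pass between blood and gland. ETS proteins such as ERG and FLI1 bind regulatory DNA in ECs of all kinds, and AP-1 is the dimer of FOS and JUN proteins.

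Windows from cerebellum-only regions are shown first, because the letters that set them apart from AP-only regions were those of the TCF/LEF motif. Each lies within 100 kb of a barrier transporter gene, a tight junction gene or a Wnt target gene that was higher in cerebellum RNA, and each spans 100 bp on either side of a peak summit, read from the + strand of GRCm38 (mm10). Capitals mark TTCAAAG or ATCAAAG on either strand. Only regions with a match were eligible, and of these the one with the highest −log10 q in its weaker replicate is printed for each gene. The windows thus show where matches lie and not how often they occur. The Slc2a1 window is chr4:119044360-119044560 and lies 64251 bp upstream of the gene. The Mfsd2a window is chr4:122955604-122955804, in an intron of the gene. The Cldn5 window, chr16:18720713-18720913, lies 56034 bp upstream and holds 3 matches. The Slco1a4 window is chr6:141889101-141889301, 33002 bp upstream. The Lef1 window is chr3:131106040-131106240, 4331 bp upstream. The Axin2 and Tnfrsf19 windows are intronic, at chr11:108936387-108936587 and chr14:61012488-61012688.
Slc2a1: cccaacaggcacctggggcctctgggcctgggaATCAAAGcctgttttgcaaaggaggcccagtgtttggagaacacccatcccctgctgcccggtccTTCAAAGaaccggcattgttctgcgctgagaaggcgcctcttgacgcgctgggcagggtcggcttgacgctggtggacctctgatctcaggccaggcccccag
Mfsd2a: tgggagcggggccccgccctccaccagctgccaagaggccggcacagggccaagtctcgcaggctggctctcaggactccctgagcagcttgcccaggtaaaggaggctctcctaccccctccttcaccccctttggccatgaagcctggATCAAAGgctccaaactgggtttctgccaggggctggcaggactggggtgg
Cldn5: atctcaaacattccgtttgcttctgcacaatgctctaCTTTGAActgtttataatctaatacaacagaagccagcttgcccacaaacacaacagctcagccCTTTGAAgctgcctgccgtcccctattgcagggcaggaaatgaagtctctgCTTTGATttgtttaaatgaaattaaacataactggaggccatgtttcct
Slco1a4: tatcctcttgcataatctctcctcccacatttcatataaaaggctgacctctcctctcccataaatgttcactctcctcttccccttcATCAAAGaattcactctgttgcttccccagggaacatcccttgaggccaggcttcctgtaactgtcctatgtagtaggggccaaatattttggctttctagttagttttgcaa
Lef1: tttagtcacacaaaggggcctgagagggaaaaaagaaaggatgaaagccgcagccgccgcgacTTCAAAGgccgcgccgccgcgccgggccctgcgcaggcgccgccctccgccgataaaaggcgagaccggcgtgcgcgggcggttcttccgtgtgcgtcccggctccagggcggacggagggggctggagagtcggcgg
Axin2: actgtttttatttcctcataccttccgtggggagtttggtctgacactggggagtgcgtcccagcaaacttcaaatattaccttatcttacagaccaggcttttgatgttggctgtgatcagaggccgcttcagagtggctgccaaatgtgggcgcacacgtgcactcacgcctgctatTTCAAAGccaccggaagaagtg
Tnfrsf19: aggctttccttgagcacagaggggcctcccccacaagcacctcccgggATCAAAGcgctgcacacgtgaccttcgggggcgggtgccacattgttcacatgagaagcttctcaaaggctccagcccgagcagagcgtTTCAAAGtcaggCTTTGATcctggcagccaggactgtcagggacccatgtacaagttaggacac

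Windows from AP-only regions are shown to set beside them the letters that were more frequent there. They too were picked among regions that hold a match, so they say nothing of its frequency. Capitals mark the ETS motif, CAGGAAG or CCGGAAG, and the AP-1 motif, TGANTCA, on either strand. The Plvap window, chr8:71511753-71511916, has 164 bases because it stops at the start of the gene, 64 bp from the summit. The Col13a1 window, chr10:61929397-61929597, and the Chrm3 window, chr13:10354895-10355095, are intronic. The Aplnr window is chr2:85145737-85145937, 9612 bp downstream of the gene start. None of these 4 regions overlapped an entry of any strength in either cerebellum list, whereas of the 7 cerebellum-only regions above those of Mfsd2a, Cldn5 and Lef1 overlapped a weaker AP entry. That of Mfsd2a was also present in both WT PP libraries.
Plvap: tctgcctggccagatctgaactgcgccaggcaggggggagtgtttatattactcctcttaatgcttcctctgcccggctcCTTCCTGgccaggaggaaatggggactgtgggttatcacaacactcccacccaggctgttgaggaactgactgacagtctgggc
Col13a1: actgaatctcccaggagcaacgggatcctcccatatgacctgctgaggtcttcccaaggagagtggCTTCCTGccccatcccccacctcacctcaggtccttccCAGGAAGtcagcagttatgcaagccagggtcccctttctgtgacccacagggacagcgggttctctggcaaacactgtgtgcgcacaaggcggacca
Aplnr: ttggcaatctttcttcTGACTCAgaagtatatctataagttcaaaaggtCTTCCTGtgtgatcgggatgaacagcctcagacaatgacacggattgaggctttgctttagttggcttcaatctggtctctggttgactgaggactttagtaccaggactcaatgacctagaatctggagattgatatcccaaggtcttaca
Chrm3: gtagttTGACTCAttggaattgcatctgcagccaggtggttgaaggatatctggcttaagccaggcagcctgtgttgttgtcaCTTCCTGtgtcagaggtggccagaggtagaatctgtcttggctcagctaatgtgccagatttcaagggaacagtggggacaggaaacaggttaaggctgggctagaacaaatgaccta

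The endothelial label was checked at transcription starts. All 10 endothelial markers (Pecam1, Cdh5, Kdr, Flt1, Tek, Tie1, Erg, Fli1, Egfl7, Esam) had a promoter peak in all 4 lists. None of 9 microglial, 6 macrophage and leukocyte, 7 oligodendrocyte or 5 erythrocyte markers had one in any list. Among pituitary endocrine markers, the promoters of the hormone genes Gh, Prl, Pomc, Cga, Lhb, Fshb and Tshb had none in any list. Of 10 mural cell markers, none had a promoter peak in either cerebellum list, Kcnj8 and Myh11 had one in both AP lists, and Abcc9 and Vtn in AP replicate 2. The astrocyte list had 1 of 6 (Gja1) in all 4 lists, the fibroblast list 2 of 4 (Pdgfra and Col1a1), the lymphatic list 1 of 3 (Prox1), and the neuronal list 1 of 8 (Snap25) in cerebellum replicate 1 only.

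The 4 lists differed in strength, which decides what the presence rule can see. After the filter they held 26394 and 24020 peaks in cerebellum and 36860 and 45040 in AP, so that the 20000 used were 75.8% and 83.3% of the cerebellum lists but 54.3% and 44.4% of the AP lists. The lowest −log10 q kept was 6.94 and 5.78 in cerebellum and 16.8 and 40.8 in AP, and the highest left out was the same value in each list. Median fold enrichment of the peaks used was 7.88 and 7.71 in cerebellum and 10.3 and 12.1 in AP, and median peak width 583 and 559.5 bp against 791 and 861 bp. The AP lists were the stronger and wider in both replicates, with no overlap between tissues in any of these measures. An AP peak could thus be left out at a strength that would have been kept in cerebellum. Of the chosen regions, 49.7% of the cerebellum-only ones overlapped a weaker entry in at least 1 AP list and 1500 overlapped none, whereas 26.9% of AP-only regions overlapped an entry in a cerebellum list and 2315 overlapped none. The regions with no entry of any strength in the other tissue are called strict below. Chromosome Y also differed: 74 and 169 of the 20000 cerebellum peaks lay there against 17 and 15 of the AP peaks, and 46 of the 2983 cerebellum-only regions against 2 of the 3168 AP-only regions. The part of list strength in the counts of regions was not tested.

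Replicates of 1 tissue shared more open chromatin than libraries of different tissues. The covered bases common to a pair, divided by those covered in either, were 0.707 for the cerebellum pair and 0.726 for the AP pair, and between 0.448 and 0.501 for the 4 pairs across tissues. A total of 12834 regions (44.4%) were in all 4 lists and 9940 (34.4%) had another pattern, of which the most frequent was presence in cerebellum replicate 1 alone (2036 regions). Among patterns of 2 lists, those that cut across tissues held between 114 and 223 regions each. The direction was then read in libraries that had not chosen the regions. Of 5552 regions in cerebellum and not AP among the replicate 1 lists, 54.0% had the same direction in the replicate 2 lists and 2.56% the opposite. Of 5806 regions in AP and not cerebellum, 55.1% kept the direction and 1.96% reversed it. In the other order, with replicate 2 choosing, the same direction was found for 58.0% and 56.4% and the opposite for 2.31% and 2.28%. The remainder were in both or neither of the lists of the second replicate.

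**Figure D1:**
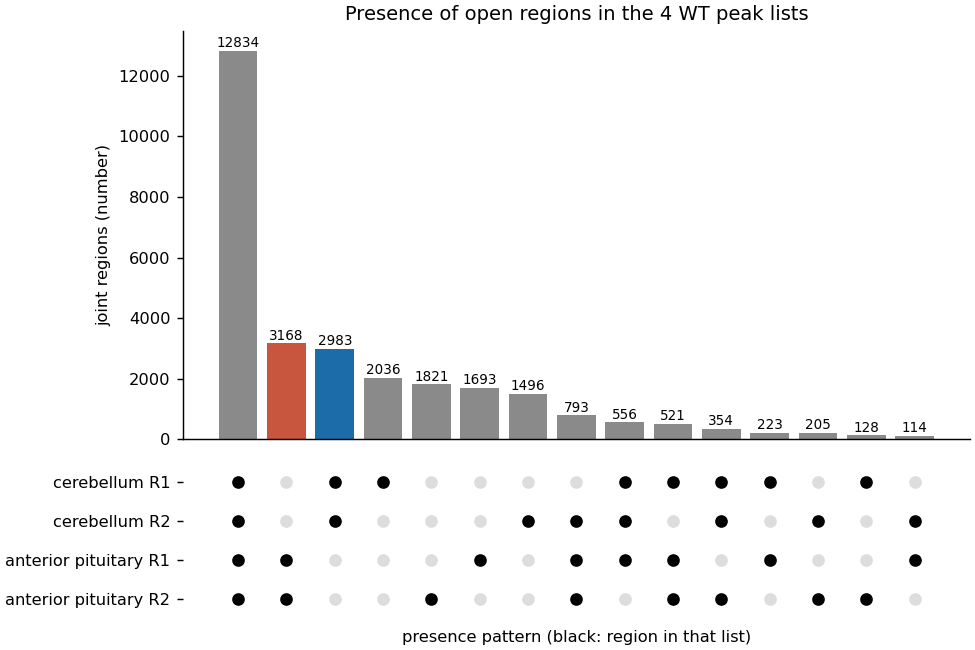
Number of joint regions (vertical axis) for each pattern of presence in the 4 WT peak lists, with black dots naming the lists that hold the region. The 3168 AP-only regions (red) and 2983 cerebellum-only regions (blue) are the most frequent patterns after the 12834 regions in all 4 lists.

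Tissue-only regions lay away from promoters. Within 1 kb of a transcription start were 10.1% of cerebellum-only and 18.2% of AP-only regions. The shares were 73.2% of the regions in all 4 lists and 41.0% of all joint regions. Introns held 46% of cerebellum-only and 43.4% of AP-only regions, and intergenic DNA 39.9% and 33.0%. The median distance to the nearest start was 16773 bp for cerebellum-only, 15316 bp for AP-only and 86 bp for shared regions. Median GC content within 100 bp of the summit was 51.7% and 53.2% against 64.7% in shared regions. In these traits the regions with another pattern were like the tissue-only ones. Of them, 15.9% lay within 1 kb of a start, with a median distance of 14606.5 bp and a median GC content of 52.7%. Regions of 1 tissue tended to sit near one another: 47.3% of cerebellum-only regions had another cerebellum-only region within 50 kb, and 17.7% had an AP-only region there. For AP-only regions the values were 40.8% for their own kind and 16.6% for the other.

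Cerebellum-only regions were set apart by the TCF/LEF motif. TTCAAAG or ATCAAAG, on either strand and within 100 bp of the summit, occurred in 652 of 2983 cerebellum-only regions (21.9%, 95% Wilson interval 20.4 to 23.4, which covers counting error only) and in 130 of 3168 AP-only regions (4.10%, 3.47 to 4.85), against 7.03% of all joint regions and 3.11% of shared regions. The share was thus 5.33 times as high in cerebellum-only as in AP-only regions. It was 29.2% in the strict cerebellum-only regions and 14.4% in those with a weaker AP entry. At least 2 matches, as in the Slc2a1, Cldn5 and Tnfrsf19 windows printed above, were found in 90 cerebellum-only regions (3.02%) and in 5 AP-only regions (0.158%). Away from promoters the ratio was 5.20, and among regions away from promoters with a GC content of 40 to 55% it was 4.87. The backgrounds were higher there. Away from promoters a match occurred in 23.1% of cerebellum-only regions, against 10.2% of all and 6.17% of shared regions. With the GC limit added the shares were 25.9%, 12.5% and 8.90%. Matches also gathered at the summit. In cerebellum-only regions the density of TCF/LEF matches was 77.4 per 1000 regions in the 50 bp bin centred 25 bp before the summit and 19.8 in the bin centred 475 bp before it. In AP-only regions the densities were 11.0 and 18.9, and in shared regions 8.42 and 16.1, so that both were lower at the summit than beside it. The nuclear receptor motif DR1 (AGGTCAAAG), which ends in similar letters but does not contain the TCF/LEF motif, occurred in the same window as a TCF/LEF match in 1 region of each class.

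In AP-only regions, ETS and AP-1 motifs were the more frequent. ETS motifs occurred in 37.9% of AP-only, 23.7% of cerebellum-only and 28.8% of all joint regions. AP-1 motifs occurred in 17.4%, 7.74% and 11.0%. Among regions over 1 kb from a transcription start, the ETS shares were 40.2%, 24.1% and 31.0%, and the AP-1 shares 19.9%, 8.28% and 15.8%. There the AP-1 share of all regions was closer to that of AP-only than to that of cerebellum-only regions. Both gathered at the summit of AP-only regions: ETS matches reached 144 and 150 per 1000 regions in the bins on either side of the summit, against 24.9 at 475 bp before it, and AP-1 matches 62.5 and 57.1 against 14.5. Cerebellum-only regions had a summit peak of ETS matches as well (85.8 and 72.7 per 1000) but little of one for AP-1 (18.4 and 26.1, against 14.8 at 475 bp before the summit). The macrophage ETS motif of PU.1 (GAGGAAGT), which contains neither of the ETS motifs used, occurred in 4.83% of AP-only, 4.06% of cerebellum-only and 3.64% of all joint regions.

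**Figure D2:**
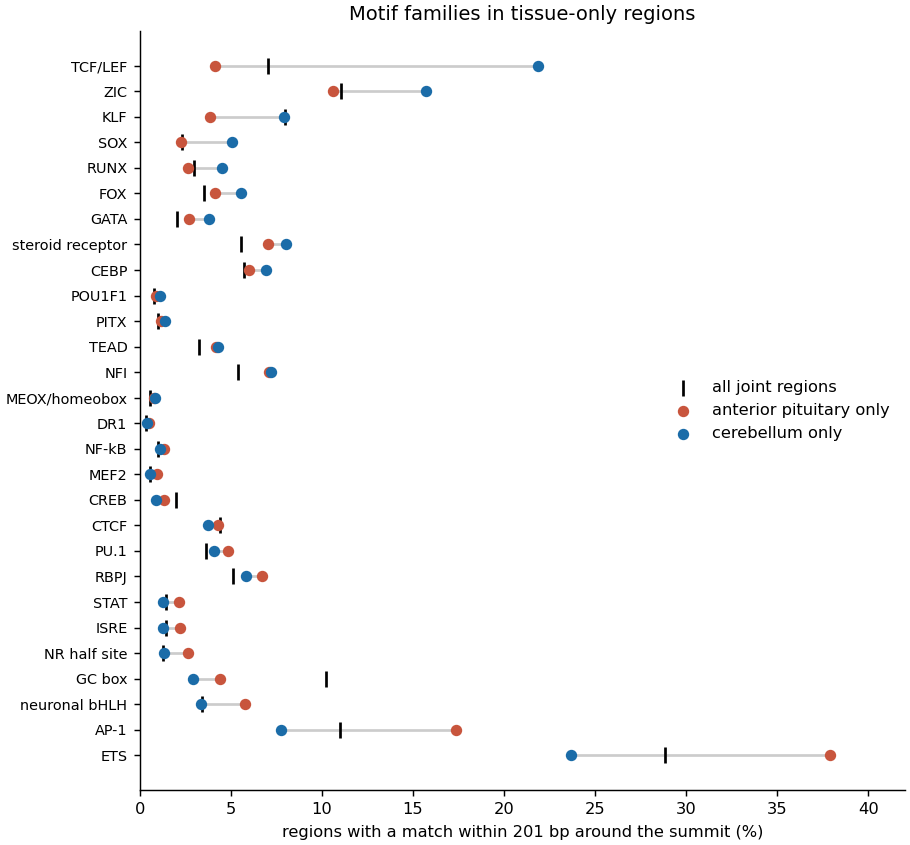
Share of regions (horizontal axis, percent) with an exact match within 100 bp of the summit for each of 28 motif families, in cerebellum-only regions (blue), AP-only regions (red) and all joint regions (black tick). TCF/LEF has the widest gap, 21.9% against 4.10%, and ETS and AP-1 the widest gaps toward AP.

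**Figure D3:**
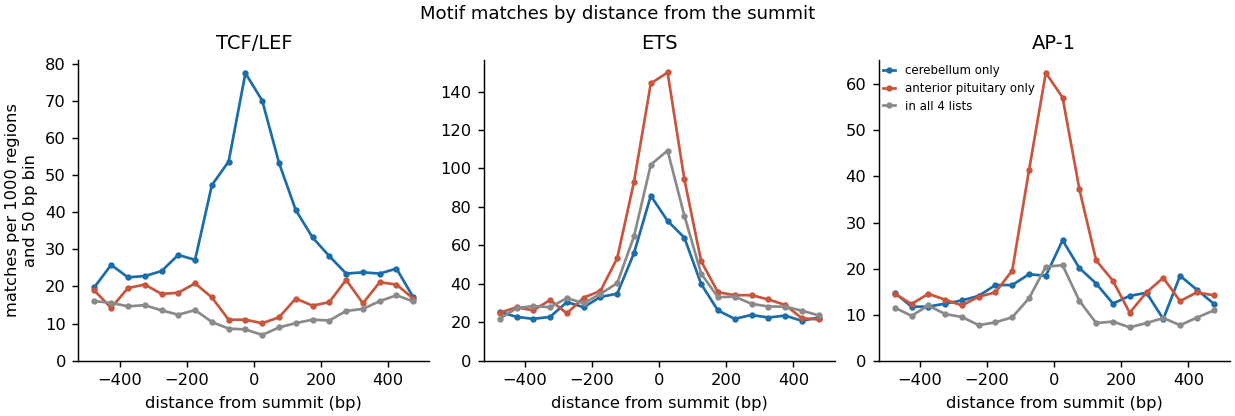
Motif matches per 1000 regions and 50 bp bin (vertical axes, which differ between panels) by distance from the peak summit in bp, for cerebellum-only (blue), AP-only (red) and shared regions (grey). TCF/LEF matches peak at the summit of cerebellum-only regions (77.4) and dip at that of AP-only regions (11.0), and AP-1 matches peak in AP-only regions (62.5).

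Other families had smaller gaps in percentage points, although several had a ratio of shares farther from 1 than ETS. Toward cerebellum, SOX motifs (AACAATGG or AACAATAG) occurred in 5.03% of cerebellum-only against 2.27% of AP-only regions, KLF motifs (GGGTGTGG or GGGCGTGG) in 7.91% against 3.85%, ZIC motifs (CCTGCTG) in 15.7% against 10.6% and RUNX motifs (AACCACA) in 4.53% against 2.62%. Of all joint regions, 2.33%, 7.98%, 11.0% and 2.98% held these. For KLF the cerebellum-only share was close to that of all regions, but among distal regions it was 7.72% against 5.62% of all, and among regions with a GC content of 40 to 55% it was 6.82% against 2.03% of AP-only and 4.13% of all regions. Toward AP, the monomer site of orphan nuclear receptors (CAAGGTCA) occurred in 2.62% against 1.31%, CAGATGG, bound by neuronal bHLH factors, in 5.74% against 3.35%, the STAT motif (TTCCNGGAA) in 2.15% against 1.24% and the interferon response element (GAAACNGAA) in 2.21% against 1.24%. The shares in all joint regions were 1.27%, 3.42%, 1.41% and 1.45%. The motif of the pituitary factor POU1F1 (ATGNATAA) was no more frequent in AP-only regions (0.852%) than in cerebellum-only regions (1.11%), with 0.740% of all regions. The NFI (CTTGGCA) and TEAD (ACATTCC) motifs had nearly the same share in both classes, 7.17% and 7.10% for NFI and 4.29% and 4.17% for TEAD, against 5.40% and 3.23% of all regions. In a match of letters, members of a family cannot be told apart.

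The classes were next followed into the 8 libraries that did not choose them, each reduced to its 20000 strongest peaks. Cerebellum-only regions were present at 79.8% and 79.5% in the 2 stabilized cerebellum libraries, and AP-only regions at 76.7% and 83.4% in the stabilized AP libraries. Each class was scarce in the other tissue: cerebellum-only regions at 16.2% and 11.9% in stabilized AP, AP-only regions at 9.66% in both stabilized cerebellum libraries. In WT PP, whose ECs are also fenestrated, AP-only regions were present at 48.1% and 47.1% and cerebellum-only regions at 19.8% and 20.1%. In stabilized PP the values were 49.8% and 51.2% for AP-only and 35.1% and 31.2% for cerebellum-only regions. The shared regions were present at 96.3% to 98.9% in all 8. Of all joint regions, 59.99% and 59.8% were present in WT PP and 63.3% to 65.9% in the 6 stabilized libraries, so that both classes were below the whole in either PP. The WT PP lists were the weakest of the 12, with a lowest −log10 q kept of 3.23 and 2.77.

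Cerebellum-only regions with and without a TCF/LEF match differed in presence outside the WT cerebellum. Of the 652 regions with a match, 5.83% and 5.52% were present in WT PP, against 23.7% and 24.2% of the 2331 regions without one. In stabilized PP the order was the opposite, 44.3% and 33.4% with a match against 32.5% and 30.6% without. In stabilized AP, 23.0% and 15.5% of the regions with a match were present and 14.3% and 10.9% of those without. In stabilized cerebellum the shares were 91.6% and 90.2% against 76.5% and 76.4%. In every one of these 4 pairs of libraries both values with a match lay on the same side of both values without one. Other motifs had gaps in the same direction in WT PP, though smaller: 14.7% and 13.3% with an ETS match against 21.4% and 22.3% without, 12.0% and 13.9% against 20.2% and 20.5% for FOX (GTAAACA), and 12.7% and 15.3% against 20.2% and 20.4% for SOX. The order turned for ETS too, though with overlapping values: in stabilized PP 37.3% and 31.8% were present with a match against 34.4% and 31.1% without, and in stabilized AP 17.7% and 14.4% against 15.7% and 11.1%. It turned in the same way for SOX, at 36.0% and 34.0% against 35.0% and 31.1% in stabilized PP and 18.0% and 14.0% against 16.1% and 11.8% in stabilized AP. For FOX it turned in stabilized AP (18.1% and 13.3% against 16.1% and 11.8%) but not in stabilized PP (34.3% and 27.7% against 35.1% and 31.5%). For AP-1 the values in stabilized PP were 39.4% and 36.4% against 34.7% and 30.8%, a wider gap in replicate 2 than for TCF/LEF. In stabilized cerebellum, regions with a FOX match were also present more often, at 89.2% and 88.6% against 79.2% and 78.9%. The same held there for SOX (86.7% and 86.0% against 79.4% and 79.1%) and ETS (84.4% and 82.2% against 78.3% and 78.6%). It also held for ZIC (82.5% and 81.2% against 79.3% and 79.1%) and AP-1 (81.0% and 82.7% against 79.7% and 79.2%). Regions are not replicates, and with 2 libraries a group no test over libraries was made. AP-only regions with an AP-1 match were present more often than those without in stabilized AP (85.3% and 89.8% against 74.9% and 82.0%) and in WT PP (54.5% and 53.6% against 46.7% and 45.7%). The 130 AP-only regions with a TCF/LEF match were scarcer in WT PP, at 31.5% and 33.8% against 48.8% and 47.7% without one. In stabilized PP they were at 55.4% and 54.6% against 49.6% and 51.1%. This turn between WT and stabilized PP was thus not particular to cerebellum-only regions.

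**Figure D4:**
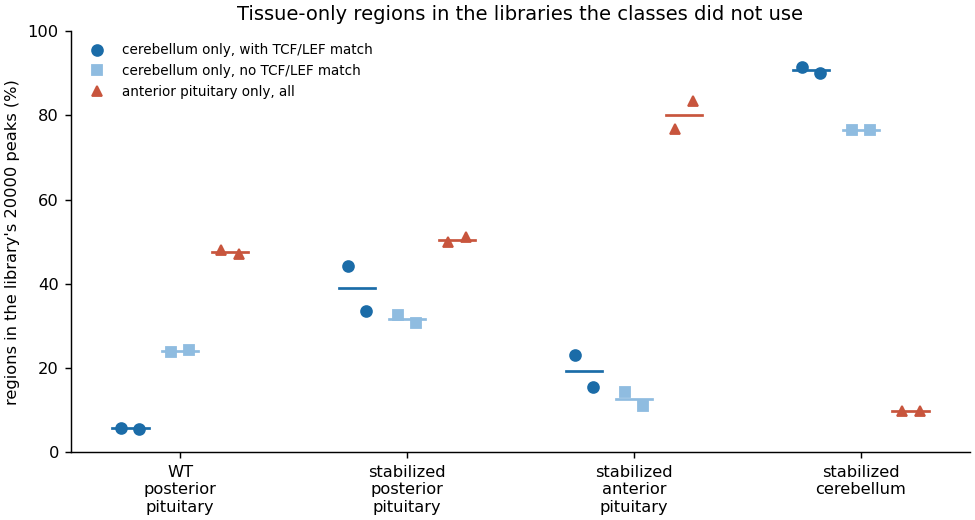
Share of tissue-only regions (vertical axis, percent) present among the 20000 strongest peaks of each library that did not choose them, with 1 symbol per library and a line at the mean of the 2 replicates. Cerebellum-only regions with a TCF/LEF match (dark blue) are at 5.83% and 5.52% in WT PP and at 44.3% and 33.4% in stabilized PP, and AP-only regions (red) are at 47.1% or more in every pituitary library.

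RNA of GFP-positive cells, sequenced from separate libraries of the same tissues and genotypes (28116011 to 33458597 estimated counts in each of the 4 WT libraries compared), was then set beside the regions. In bulk RNA, fewer cells of a type and less RNA per cell cannot be told apart. By edgeR's quasi-likelihood test at an adjusted p under 0.05 and at least 2-fold, 538 of 17915 genes tested (3.0%) were higher in cerebellum and 404 (2.26%) higher in AP, of which the latter count was 260 and 259 without AP replicate 1 and 2. RNA of other cells moved with the tissues. The 13 endocrine markers summed to 36.5 and 32.8 TPM in cerebellum and 6893 and 4419 TPM in AP, where 7 of them were higher, with Pitx1, Lhb and Ghrhr among those at 0 in both cerebellum libraries. The 10 mural markers summed to 1063 and 877 TPM in cerebellum and 191 and 225 TPM in AP, with 5 higher in cerebellum and Kcnj8 higher in AP. The 5 erythrocyte genes summed to 65218 and 7177 TPM in cerebellum and 2210 and 1350 TPM in AP. The 7 oligodendrocyte markers summed to 41.4 and 33.6 TPM in cerebellum and 0.166 and 0.300 TPM in AP, where Mbp was the one called. Of the macrophage and leukocyte markers, Mrc1 was higher in AP (1.28 and 0.0659 against 17.5 and 17.6 TPM) and Lyz2 higher in cerebellum (4.09 and 1.79 against 0.392 and 0.0797 TPM), and the lymphatic marker Prox1 was higher in AP (0.354 and 0.232 against 2.93 and 2.65 TPM). The part of these cells in the RNA differences was not tested, and at the DNA level the promoter peaks of their markers were as given above.

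Genes higher in a tissue had regions of that tissue nearby. A cerebellum-only region lay within 100 kb of the gene body for 395 of the 538 genes higher in cerebellum (73.4%), against 30.6% of the 17879 tested genes that could be placed. An AP-only region lay within 100 kb of 289 of the 403 placed genes higher in AP (71.7%), against 34.3% of the tested genes. Regions of the opposite tissue were not more frequent: 30.5% of genes higher in cerebellum had an AP-only region nearby, and 27.5% of genes higher in AP a cerebellum-only region. Regions in all 4 lists were near 87.2%, 88.3% and 87.8% of genes higher in cerebellum, higher in AP and tested. Counting strict regions alone, the shares were 57.8% against 16.9% of tested genes for cerebellum, and 62.5% against 26.1% for AP. Among protein-coding genes with at least 10 TPM, they were 77.9% against 36.8% and 75.2% against 39.9%. The genes higher in cerebellum were longer, with a median of 56166 bp against 23757 bp for those higher in AP and 18416 bp for all tested, so that more DNA was searched around them. Their part in the share was not tested.

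The share of called genes moved with the number of regions. Of 12413 genes with no cerebellum-only region within 100 kb, 1.15% were higher in cerebellum, and of 143 genes with 5 or more, 28% were. For AP-only regions the corresponding values were 0.970% of 11750 genes and 20.0% of 125 genes higher in AP. The genes nearest to the regions gave a like picture. Of 2025 tested genes nearest to a cerebellum-only region, 15.0% were higher in cerebellum and 2.27% higher in AP, and of 2278 genes nearest to an AP-only region, 9.13% were higher in AP and 2.63% higher in cerebellum. The minority of regions at promoters stood beside the larger shares: 24.7% of 287 genes nearest to a cerebellum-only promoter region were higher in cerebellum, and 14.1% of 554 genes nearest to an AP-only promoter region were higher in AP. Genes nearest to a cerebellum-only region with a TCF/LEF match were higher in cerebellum in 21.1% of 574 cases, against 15.5% of 1693 for regions without one.

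**Figure D5:**
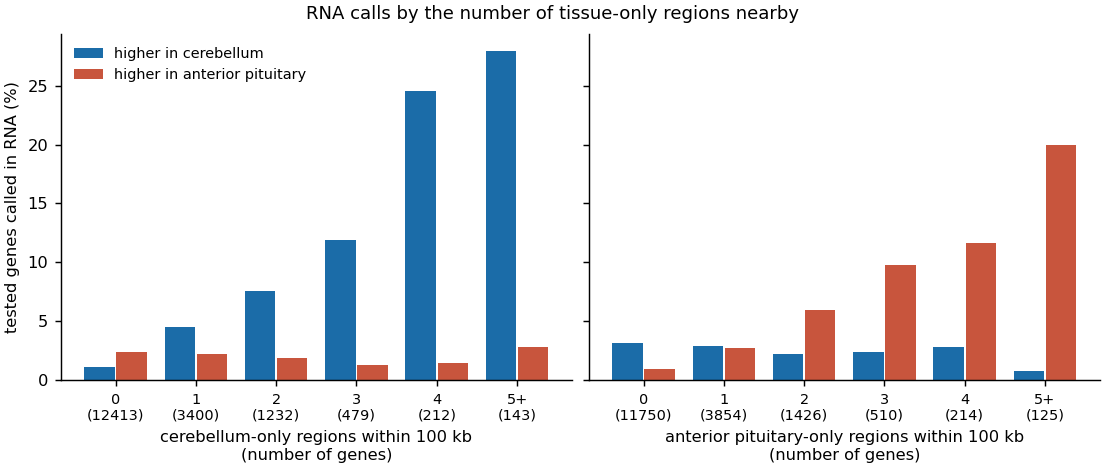
Share of tested genes (vertical axis, percent) higher in cerebellum RNA (blue) or AP RNA (red) by the number of cerebellum-only (left) or AP-only (right) regions within 100 kb of the gene body, with the number of genes under each pair of bars. The share higher in cerebellum runs from 1.15% with no cerebellum-only region to 28% with 5 or more, and the share higher in AP from 0.970% to 20.0% with AP-only regions.

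Among barrier transporter genes, 18 of 20 were higher in cerebellum and none was higher in AP, beside 3.0% and 2.26% of tested genes. Of the 20, 18 had a cerebellum-only and 8 an AP-only region within 100 kb, against the 30.6% and 34.3% of tested genes given above. Slc2a1, the glucose transporter of the BBB, had the most of any gene named here, 11 cerebellum-only regions, of which 10 had no AP entry of any strength and 1 held a TCF/LEF match, and no AP-only region. They ran from 100036 to 2752 bp upstream of its start, all intergenic, and the strongest (chr4:119021630-119022406) had a fold enrichment of 12.4 and 11.1 in the cerebellum replicates. Its RNA was at 1579 and 1625 TPM in cerebellum and 10.8 and 16.7 TPM in AP, a log2 difference of 6.92 ± 0.42 (SE, edgeR adjusted p = 1.43e-06). The cerebellum values were all above the AP values by a wide margin. Mfsd2a, a lipid transporter that holds down vesicle traffic in BBB ECs, had 6 cerebellum-only regions, 2 with a match, and no AP-only region. One lay 38 bp upstream of its start (fold enrichment 8.53 and 7.47) and another in an intron 5484 bp from the start (12.5 and 10.4), the Mfsd2a window printed above. Its RNA was at 164 and 364 TPM in cerebellum and at 0 and 0.0176 TPM in AP (edgeR adjusted p = 6.02e-07).

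Slco1c1, which carries thyroid hormone, had 4 cerebellum-only regions, none with a TCF/LEF match, one of them 242 bp upstream of its start (fold enrichment 10.1 and 11.0), and 1679.9 and 1345 TPM in cerebellum against 0 and 0.0162 TPM in AP. Slc6a6, the taurine transporter, had 5, none with a match, with 397 and 270 against 18.8 and 17.9 TPM and a log2 difference of 4.00 ± 0.32 (edgeR adjusted p = 1.02e-05). Slc19a3, a thiamine transporter, had 5, of which 3 held a match, with 22.6 and 27.98 against 0 and 0.643 TPM. Slc38a3, a glutamine transporter, had 5 cerebellum-only regions, 1 with a match, and 4 AP-only regions. Slc40a1, the iron exporter, and Slc5a6, a vitamin transporter, were higher in cerebellum with no tissue-only region within 100 kb. The 2 members that were not called were Abcg2, at 349 and 248 TPM in cerebellum and 406 and 542 TPM in AP, and Slc3a2, at 1906 and 1123 TPM and 843 and 1030 TPM, with 3 and 2 cerebellum-only regions and, for Abcg2, 2 AP-only regions. The median log2 difference of the list was 5.51, against 0 for all tested genes.

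Of 12 tight junction genes, 7 were higher in cerebellum and 1 higher in AP, and 8 had a cerebellum-only and 6 an AP-only region nearby. Of all tested genes, 3.0% and 2.26% were called in these directions, and 30.6% and 34.3% had such a region. Ocln, a tight junction membrane protein, had 8 cerebellum-only regions and no AP-only region, including a summit 45 bp from its start (fold enrichment 4.84 and 4.67), and 206 and 223 against 0.789 and 2.91 TPM, a log2 difference of 6.58 ± 0.88 (edgeR adjusted p = 0.000471). Marveld2, which seals the junction of 3 cells, is its neighbour and shares regions with it. It had 7 cerebellum-only regions and 18.3 and 15.1 against 0.141 and 1.35 TPM. Cldn5, the main claudin of the BBB, had 4 cerebellum-only regions between 80210 and 14885 bp upstream, 2 of them with TCF/LEF matches, while 7 regions near it were in all 4 lists. Its RNA was at 453 and 511 TPM in cerebellum and 23.4 and 21.9 TPM in AP, a log2 difference of 4.58 ± 0.51 (edgeR adjusted p = 0.00011). Tjp1, Lsr and Cgnl1 were among the others higher in cerebellum. Jam3, a junctional adhesion molecule, went the other way, with 2 AP-only and no cerebellum-only region and 5.83 and 4.90 TPM in cerebellum against 103 and 126 TPM in AP. Esam had 5 AP-only regions and no call in RNA (1478 and 1632 TPM in cerebellum, 973 and 2225 TPM in AP). The median log2 difference of the list was 1.37.

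Of 10 Wnt target and feedback genes, 7 were higher in cerebellum and none higher in AP, beside 3.0% and 2.26% of tested genes. A cerebellum-only region lay near 8 and an AP-only region near 4, against 30.6% and 34.3% of tested genes. Lef1, itself a partner of beta-catenin, had 7 cerebellum-only regions, 4 of them with a TCF/LEF match, from 53002 bp upstream to 89537 bp into the gene, and 2 AP-only regions. Its RNA was at 156 and 120 TPM in cerebellum and 0 and 4.27 TPM in AP, a log2 difference of 7.11 ± 1.39 (edgeR adjusted p = 0.00799). Notum, a secreted inhibitor of Wnt ligands, had 5 cerebellum-only regions, 3 with a match, and 1 AP-only region, with 70.9 and 35.1 TPM in cerebellum and no count in AP. Against the floor of 3 counts over both AP libraries this is at least 1402-fold higher. Nkd1, a feedback inhibitor, had 4 regions, 3 with a match, and 27.5 and 23.2 against 0.0393 and 0 TPM. Tnfrsf19 had 4 regions, 2 with a match, and 29.3 and 44.4 TPM against no count. Axin2, part of the beta-catenin destruction complex, had 4 regions, 1 with a match, and 30.2 and 41.5 against 3.10 and 0.0474 TPM, with a log2 difference of 4.31 ± 1.07 (edgeR adjusted p = 0.0344). Apcdd1 and Tcf7 were the others called. Znrf3 had 4 cerebellum-only regions, 3 with a match, and was not called (10.7 and 2.57 against 1.55 and 0.721 TPM). Sp5 and Rnf43 had no tissue-only region. The median log2 difference was 5.71, the same with genes at 0 in a tissue set to their bound.

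Of 10 genes for Wnt receptors and beta-catenin partners, 4 were higher in cerebellum and 1 higher in AP, and 8 had a cerebellum-only and 5 an AP-only region nearby, beside 3.0% and 2.26% of tested genes called and 30.6% and 34.3% with a region. Adgra2 and Reck, which together present Wnt7 ligands to the receptor in brain ECs, and the receptors Fzd6 and Lrp6 were higher in cerebellum. Fzd6 had 4 cerebellum-only regions and 69.8 and 56.2 against 0.647 and 0.797 TPM. Adgra2 had 4 and 32.2 and 21.7 against 6.43 and 3.56 TPM. Tspan12, a partner of the receptor FZD4, was higher in AP, at 79.3 and 107 TPM in cerebellum and 152 and 218 TPM in AP, with 4 AP-only regions and 1 cerebellum-only region. Fzd4 itself was not called, with 22.1 and 20.1 TPM in cerebellum and 35.2 and 40.4 TPM in AP. Of the 4 genes for TCF and LEF proteins, which bind the motif described above, Lef1 and Tcf7 were called, and Tcf7l1 (3.71 and 4.80 against 10.2 and 19.8 TPM) and Tcf7l2 (5.21 and 7.12 against 5.27 and 22.03 TPM) were not. The median log2 difference of these 10 genes was 0.22.

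Of 8 transcription factor genes linked to the barrier, 5 were higher in cerebellum and none higher in AP, beside 3.0% and 2.26% of tested genes. A cerebellum-only region lay near 7 and an AP-only region near 5, against 30.6% and 34.3% of tested genes. Foxf2 and Foxq1 are neighbours and share 3 regions, one of them 174 bp upstream of Foxf2 (fold enrichment 6.62 and 6.69) and one 2083 bp past the start of Foxq1 (12.3 and 10.4). Foxq1 was at 29.2 and 22.1 TPM and Foxf2 at 40.9 and 37.2 TPM in cerebellum, with no count for either in AP. Outside the list, Zic2 had 3 cerebellum-only regions, with 38.8 and 31.2 TPM against no count (edgeR adjusted p = 0.0105), and Zic1 was called with none nearby. Ebf1 and Foxc1 were higher in cerebellum with 0 and 1 such region. Sox17, Sox7 and Foxl2 were not called. Among 5 tested genes for factors of regional identity, Tbx3, Gata2 and Foxf1 were higher in cerebellum, with 1, 4 and 3 cerebellum-only regions. Foxf1 also had 2 AP-only regions. Meox1 (8.28 and 18.7 against 39.0 and 32.0 TPM), with 2 cerebellum-only regions, and Gata6 were not called. Of all tested genes, 3.0% were called higher in cerebellum, and 30.6% had a cerebellum-only and 34.3% an AP-only region nearby.

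The 10 cerebellum genes chosen by their number of regions were Slc2a1, Ablim1, Ocln, Afap1l2, Ptprg, Ly6c1, Abr, Lef1, Marveld2 and Fry, with 7 to 11 cerebellum-only regions each. Ablim1, an actin-binding protein gene of 282187 bp, had 9 cerebellum-only and 5 AP-only regions, of which 2 and 5 were strict, and 354 and 337 against 36.4 and 39.6 TPM. Afap1l2, its neighbour on chromosome 19, had 8 and none, and 52.7 and 14.0 against 0.207 and 3.41 TPM. Ly6c1, a surface antigen of ECs and leukocytes, had 8 cerebellum-only regions, each with a weaker entry in an AP list, and 3322 and 3440 against 777 and 960 TPM, a log2 difference of 1.98 ± 0.29 (edgeR adjusted p = 0.00111). Fry had 7, all strict, and no AP-only region, with 83.3 and 85.0 against 12.8 and 25.1 TPM. Ptprg, a receptor phosphatase gene of 688510 bp, had 8 and none, and a log2 difference of 2.18 ± 0.26 (edgeR adjusted p = 0.000169). Abr was close to the thresholds, with 56.4 and 36.3 against 16.9 and 33.8 TPM and an adjusted p of 0.0488 by edgeR.

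The 10 AP genes chosen the same way were Col15a1, Cemip2, Col13a1, Dpysl3, Exoc3l2, Socs3, Synpo, Plxnd1, Chrm3 and Rarb, with 5 to 9 AP-only regions each, and all but Exoc3l2 (1) had no cerebellum-only region. Col15a1, a basement membrane collagen, had 9 AP-only regions, one at its start (fold enrichment 5.51 and 9.14), and 0.0365 and 2.05 TPM in cerebellum against 169 and 428 TPM in AP. Its log2 difference, cerebellum minus AP, was -6.67 ± 1.12 (edgeR adjusted p = 0.00274). Col13a1, a transmembrane collagen, had 8, all strict, 4 of them within the gene, and 0 and 1.67 against 165 and 203 TPM (log2 difference -7.81 ± 1.204, edgeR adjusted p = 0.00196). Exoc3l2 had 7 AP-only regions, of which 5 lay in the gene, and 0.664 and 0.779 against 192 and 458 TPM (log2 difference -8.27 ± 0.51, edgeR adjusted p = 2.78e-06). In all 3 genes both AP values were far above both cerebellum values.

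Cemip2, a cell surface hyaluronidase, had 9 AP-only regions but a small difference in RNA, 4.07 and 3.08 against 10.1 and 10.1 TPM. Socs3, an inhibitor of cytokine signaling, had 6 and 6.37 and 0.762 against 103 and 162 TPM. Plxnd1, a semaphorin receptor, had 6 and 114 and 136 against 243 and 268 TPM, with an adjusted p of 0.047 by edgeR. Chrm3, the muscarinic receptor M3, a gene of 485362 bp, had 5 AP-only regions, all strict, and 0.00455 and 0 against 57.8 and 79.7 TPM (edgeR adjusted p = 3.73e-06). Rarb, a retinoic acid receptor, also had 5, all strict, with fold enrichments between 9.17 and 15.4, and 0 and 0.616 against 29.8 and 48.0 TPM. Dpysl3 had 8, all strict, with 0.507 and 0.555 against 23.1 and 21.2 TPM, and Synpo 6, with 4.28 and 2.998 against 13.3 and 31.7 TPM.

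Of 7 genes for the fenestral diaphragm and caveolae, 2 were higher in AP and 1 higher in cerebellum, beside 2.26% and 3.0% of tested genes. An AP-only region lay near 3 and a cerebellum-only region near 6, against 34.3% and 30.6% of tested genes. Plvap, the diaphragm protein, had 4 AP-only regions and 1 cerebellum-only region. The strongest was at the promoter, 64 bp upstream of the start, with a fold enrichment of 7.99 and 9.59 and no entry in either cerebellum list. Plvap RNA was at 0 and 10.7 TPM in cerebellum and 845 and 1028 TPM in AP, a log2 difference of -7.43 ± 1.85 (edgeR adjusted p = 0.0343), in which the spread came from the cerebellum libraries. Cavin3 was also higher in AP (19.9 and 12.7 against 129 and 130 TPM), with 2 AP-only regions. Cav1, the caveolar coat protein, was higher in cerebellum (154 and 181 against 68.4 and 24.1 TPM), and Cav2, Cavin1, Cavin2 and Ehd2 were not called. The median log2 difference of the list was 0.12.

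Of 8 genes for capillary lipid uptake, Fabp4, Fabp5 and Gpihbp1 were higher in AP and Cd36 higher in cerebellum. Of all tested genes, 2.26% and 3.0% were called in these directions. An AP-only region lay near 5 of the 8 and a cerebellum-only region near 3, against 34.3% and 30.6% of tested genes. Fabp4, a fatty acid carrier, had 2 AP-only regions, one in its body (fold enrichment 7.59 and 10.8), and 0 and 3.28 against 385 and 262 TPM. Gpihbp1, which anchors lipoprotein lipase in capillaries, had 1, 3518 bp upstream (8.22 and 12.9), and 0 and 1.21 against 92.2 and 122 TPM. Pparg, a regulator of fat metabolism, had 3 AP-only regions and was not called (0.0514 and 0 against 6.99 and 5.00 TPM). Cd36 was at 1.62 and 0.0726 TPM in cerebellum and had no count in AP.

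Of 11 genes for VEGF and apelin signaling, Nrp2, Aplnr and Flt4 were higher in AP and Flt1 higher in cerebellum, and 9 had an AP-only and 6 a cerebellum-only region nearby. Among tested genes 2.26% and 3.0% were called and 34.3% and 30.6% had these regions. Kdr, the main VEGF receptor, had 5 AP-only and 3 cerebellum-only regions and was not called (148 and 203 against 347 and 372 TPM). Aplnr, the apelin receptor, had 1 cerebellum-only region, and AP-only regions at its promoter (fold enrichment 5.85 and 5.74) and 9612 bp past its start (11.4 and 10.6), the Aplnr window printed above, and 6.09 and 20.9 against 114 and 62.8 TPM (log2 difference -1.87 ± 0.50, edgeR adjusted p = 0.0487). Flt1, a VEGF receptor that also acts as a decoy, had 4 cerebellum-only regions and 1 AP-only region and 1003 and 507 against 210 and 232 TPM. The median log2 difference of the list was -0.96.

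Of 13 arterial and Notch genes, 6 were higher in cerebellum (Jag1, Jag2, Hey1, Gja5, Unc5b and Bmx) and Efnb2 was higher in AP, and 8 had a cerebellum-only and 7 an AP-only region nearby, where 3.0% and 2.26% of tested genes were called and 30.6% and 34.3% had a region. Gja5, an arterial connexin, and Bmx had no tissue-only region within 100 kb. Of 8 venous and leukocyte adhesion genes, Vcam1 and Vwf were higher in cerebellum and Nr2f2, a factor of venous identity, higher in AP. A cerebellum-only region lay near 3 and an AP-only region near 4. The shares of tested genes were again 3.0% and 2.26% called and 30.6% and 34.3% with a region. Vwf, the von Willebrand factor, had 1 cerebellum-only and 2 AP-only regions and 51.7 and 76.7 against 0.296 and 0.137 TPM, while Vcam1 (41.7 and 62.8 against 0 and 0.00657 TPM) had none. Of 7 ETS factor genes, all had a promoter peak in all 4 lists, all had an AP-only region nearby and 4 a cerebellum-only region, against 34.3% and 30.6% of tested genes. Fli1 had 6 cerebellum-only and 2 AP-only regions, Elk3 4 and 1, Ets1 4 and 5 and Erg 3 and 4, while Elf1, Etv6 and Ets2 had 3, 2 and 1 AP-only regions and no cerebellum-only region. Elf1 alone was called, higher in AP at 43.9 and 41.1 TPM against 22.2 and 13.8 TPM. Ets1 (166 and 166 against 156 and 223 TPM), Erg (8.94 and 13.2 against 23.2 and 22.6 TPM) and Fli1 (28.6 and 46.3 against 16.1 and 36.2 TPM) were not called.

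Genes for AP-1 proteins and other immediate early genes, looked up after the motif shares were seen, differed between the cerebellum replicates. Fos was at 309 and 12.2 TPM in cerebellum and 790 and 1238 TPM in AP (log2 difference -2.76 ± 0.83, edgeR adjusted p = 0.088), and had 5 AP-only regions and 1 cerebellum-only region nearby. Jun was at 232 and 22.3 against 416 and 573 TPM, Junb at 122 and 16.8 against 288 and 321 TPM and Atf3 at 23.8 and 2.17 against 93.8 and 131 TPM, none of them called. Egr1, induced by the same stimuli, was higher in AP (70.4 and 10.5 against 514 and 693 TPM, edgeR adjusted p = 0.00733). For all 5 genes both AP values were above both cerebellum values, and cerebellum replicate 2 was the lowest. These genes respond to tissue handling as well as to signals in the animal, and their part in the AP-1 share of AP-only regions was not tested. Among nuclear receptor genes, whose monomer site was more frequent in AP-only regions, Nr5a2 was higher in AP (1.13 and 3.23 against 29.6 and 37.0 TPM, edgeR adjusted p = 0.00266) and had 5 AP-only regions.

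The strongest regions of each class, by −log10 q in the weaker replicate, were mostly near genes other than those above. The strongest cerebellum-only region, chr7:46013057-46013972, lay in an intron of Abcc6, a transporter gene, with a fold enrichment of 13.3 and 15.2 and a TCF/LEF match. It was absent from WT PP and present in all 6 stabilized libraries, and Abcc6 RNA was at 2.13 and 6.77 TPM in cerebellum with no count in AP (edgeR adjusted p = 0.000727). The intronic region of Bche, a cholinesterase gene (chr3:73673129-73673914), had the highest fold enrichment of the 10, 16.6 and 18.9, no entry in AP, and was found outside WT cerebellum in both stabilized cerebellum libraries and no pituitary library. Bche RNA was at 33.0 and 22.2 TPM with no count in AP, at least 2686-fold higher against the floor of 3 counts. Others lay in introns of Slc6a6 and Mfsd2a, 17070 bp upstream of Vwf, 5588 bp from the start of Kcp, a secreted regulator of BMP signaling, and 150 bp from the start of Gm49097, inside Baalc. Of these 10 regions, 5 held a TCF/LEF match, 8 had a weaker entry in an AP list, and all 10 were in both stabilized cerebellum libraries.

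Of the 10 strongest AP-only regions, 9 had no entry in either cerebellum list, and all 10 were in both stabilized AP libraries. The nearest tested gene was called higher in AP for 2 of them, beside 9.13% of the genes nearest to any AP-only region and 2.84% of those nearest to any joint region. One, chr11:7863446-7864472, lay 649947 bp from Igfbp3, which binds insulin-like growth factors and was at 4.47 and 24.0 TPM in cerebellum and 781 and 837 TPM in AP. Another, chr7:70505253-70506437, lay 139342 bp from Nr2f2, which was at 10.8 and 6.85 against 33.5 and 29.1 TPM. It was absent from all 4 PP libraries. The region chr14:16574901-16575943 was inside Rarb, with a fold enrichment of 14.2 and 12.2. The strongest by −log10 q, chr13:106759950-106761313 (fold enrichment 13.0 and 14.9), was 863 bp from the start of the noncoding gene Gm30411 and held an AP-1 match, the only one among these 10. A TCF/LEF match was held by 2 of the 10, the region near Nr2f2 and chr13:82257838-82259273, against 5 of the 10 strongest cerebellum-only regions.

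Of 10 mural markers, Kcnj8 and its neighbour Abcc9, which encode the channel and the sensor of a potassium channel closed by ATP, had 4 and 5 AP-only regions within 100 kb and no cerebellum-only region. Kcnj8 RNA was at 14.2 and 14.6 TPM in cerebellum and 127 and 148 TPM in AP, and Abcc9 RNA was not called (18.9 and 20.8 against 19.0 and 28.1 TPM). Rgs5, Vtn, Notch3 and Pdgfrb, markers of pericytes, were higher in cerebellum RNA and had no promoter peak in either cerebellum list. Within 100 kb, Notch3 had 3 cerebellum-only regions and no AP-only region, Vtn 1 of each, Rgs5 1 AP-only region and Pdgfrb none. Myh11, a myosin of smooth muscle, was also higher in cerebellum RNA (16.9 and 5.48 against 0.436 and 0.0176 TPM) with 2 cerebellum-only regions and 1 AP-only region. Gja1, a connexin shared by astrocytes and ECs, was higher in AP (78.9 and 78.0 against 474 and 440 TPM) with 2 AP-only regions and a promoter peak in all 4 lists.

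Regions in all 4 lists were compared by the height of their peaks. Fold enrichment also entered the filter that kept peaks, so the heights are not wholly independent of the choice of regions. Median fold enrichment over the 12834 regions was 9.89 and 10.2 in cerebellum and 12.2 and 13.8 in AP, and heights were centred on each library's median before the test. By limma with Benjamini-Hochberg adjustment, 1570 regions (12.2%) were higher in cerebellum and 1322 (10.3%) higher in AP. At least 2-fold differences were few, 36 and 226. Without AP replicate 2 there were 55 and 55, and without AP replicate 1 there were 864 and 357, so that the counts rested on both AP libraries. After quantile normalization they were 703 and 999, and without cerebellum replicate 1 they were 1092 and 1536, so that which tissue had more calls depended on the setting. Without the centring they were 56 and 3714. The Fabp5 promoter was among the 5 with the largest difference toward AP, with a fold enrichment of 4.80 and 3.95 in cerebellum and 16.1 and 18.8 in AP (limma adjusted p = 0.00063), and Fabp5 RNA was higher in AP (0 and 1.24 against 13.6 and 19.7 TPM). The other 4 toward AP, at Renbp and nearest to Intu, Ubr2 and Hsf2, and all 5 toward cerebellum, nearest to Gm15564, Brox, Gm37587, Palm and Wdr37, were not beside genes called in RNA. Of the genes nearest to shared regions higher in cerebellum, 4.47% were higher and 4.54% lower in cerebellum RNA, and of those nearest to shared regions higher in AP, 3.29% were higher in AP and 3.21% higher in cerebellum. Of the genes nearest to any shared region, 3.33% were higher in cerebellum and 2.45% higher in AP. ETS motifs occurred in 34.9% of the shared regions higher in AP and 19.4% of those higher in cerebellum, against 27.8% of all shared regions, and TCF/LEF motifs in 2.80% and 4.08%, against 3.11%.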

How the data were processed

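Peak lists of ATAC-seq libraries and transcript tables of RNA-seq libraries were taken from GFP-positive cells sorted from cerebellum and pituitary. Per the labels, ATAC-seq used about 50000 cells per library, 11 cycles of PCR and paired-end reads of 36 cycles. The authors aligned reads with Bowtie2 2.3.2 to mm10 and called peaks in each library on its own with MACS2 2.1.1.20160309. The deposited peak files give fold enrichment over local background and −log10 of p and q, all from MACS2, and no read counts, so that no count model could be used on them and the depth is unknown. The authors obtained estimated counts and TPM per transcript with Salmon 0.10.2, as deposited.

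Entries of a library that share a peak were merged, and the strongest 20000 were kept. Peaks overlapping by at least 1 bp in any library were joined. A region is a promoter region when its summit lies within 1 kb of a transcript start in GENCODE M21 on GRCm38. Motifs were exact letters on either strand within 100 bp of the strongest summit, and intervals on their shares cover counting error only. Estimated counts were summed per gene and rounded, and 12 GFP-positive libraries of 3 tissues and both genotypes were fitted together with edgeR 4.0.16 (R 4.3.3, TMM, quasi-likelihood test, Benjamini-Hochberg adjustment). Of these, 1 stabilized library is AP by its title and posterior pituitary by its tissue label, and was used by its title. With the 4 WT libraries alone, 473 genes were higher in cerebellum and 373 in AP. Of 17915 genes tested, 17879 lay on chromosomes 1 to 19, X and Y, which left 403 of 404 genes higher in AP for the regions nearby. Heights of shared regions, as log2 of fold enrichment centred on each library's median, were fitted with limma 3.58.1. Scripts were tested on simulated data. The 2 replicates of a tissue were independent preparations.

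Members and lists were chosen with earlier results of these data known. Named regions were the 10 of each class with the highest −log10 q in the weaker replicate. Named genes were called, had at least 10 TPM in both replicates of the higher tissue, and were the 10 with the most regions of that tissue within 100 kb. List members could be named when called or beside a tissue-only region, the 5 largest height differences were named in each direction, and other genes were chosen after their values were seen. Where a tissue had no count, folds are given against a floor of 3 counts over its 2 libraries. Alternatives covered the number of peaks, the filter, overlap, window, GC content, single libraries, the replicate number, normalization and DESeq2 1.42.0. RNA of GFP-negative cells and ribosome-bound RNA were not used here. Some results of these rules are not reported here.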

Additional observations from a re-analysis of the deposited data

How the results depend on the processing

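Of 105 alternatives, 55 changed neither the call nor the size beyond the limits used. Most results are counts for 1 tissue, and which tissue had the larger count of regions or of height calls turned under several settings. The causes of the shifts were not tested. With 10000 peaks per library there were 1085 cerebellum-only, 1039 AP-only and 7162 shared regions. With all peaks past the filter, which keeps more in AP, AP-only regions numbered 12577. With 20000 entries taken before merging they numbered 1927 against 2461 cerebellum-only regions, and 1500 cerebellum-only regions had no AP entry at all. Leaving out 1 library gave 3358 to 5032 cerebellum-only and 3692 to 5031 AP-only regions. The TCF/LEF share of cerebellum-only regions was 13.2% within 50 bp of the summit, 34.9% within 250 bp, 25.6% at a GC content of 40 to 55%, 19.4% with 10000 peaks, 25.9% with all peaks, 29.2% in strict regions and 18.1% to 20.7% without 1 library. That of AP-only regions was 1.99%, 13.4%, 5.39% and 3.08% under the first 4 of these, and the ratio of both shares ran from 2.60 to 7.19.

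DESeq2 called 984 genes higher in cerebellum and 834 higher in AP, and without a filter on low counts 697 were higher in AP. Without 1 RNA library, 259 to 313 genes were higher in AP. Genes higher in cerebellum with a cerebellum-only region nearby were 55.6% within 10 kb, 57.6% within 50 kb of the start, 45.5% with 10000 peaks and 69.1% with all peaks, against 9.78%, 15.7%, 17.5% and 24.2% of tested genes, and 75.7% to 83.1% without 1 library, against 34.4% to 43.8%. For AP the values were 47.1%, 57.3%, 42.2% and 94.0%, against 11.7%, 18.7%, 17.5% and 73.7% of tested genes, and 73.7% to 81.4% without 1 library, against 38.5% to 46.8%. Shared regions higher in cerebellum numbered 703 after quantile normalization, 56 without centring, 36 at 2-fold and 55 to 1782 without 1 library. Those higher in AP numbered 999 after quantile normalization, 3714 without centring, 226 at 2-fold and 55 to 1640 without 1 library.

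Same-numbered replicates did not deviate together (r = -0.00988 across genes in RNA and -0.0492 across regions in heights, as descriptions), so the numbers pair nothing. With a replicate block, 558 and 421 genes and 1877 and 1536 shared regions were called higher in cerebellum and AP, and 73.1% and 71.0% of called genes had a region of their tissue nearby. No depth is known for the peaks, so regions absent from a list cannot be told apart from regions below its reach.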
